A study of Homo sapiens with 15 samples.

Results

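The genes examined here are 33 genes of glycolysis and lactate transport, taken by name from the 57820 gene identifiers of the expression files. They cover hexose uptake, every enzyme step from glucose to pyruvate, the enzymes that set fructose 2,6-bisphosphate, lactate dehydrogenase, the lactate carriers with their chaperone, and the gate from pyruvate to the mitochondrion. RNA-seq libraries came from 3 human lines of acute myeloid leukemia (AML), the monocytic MOLM-13 and U937 and the promyelocytic HL-60, each carrying either the empty lentiviral vector pLKO or a short hairpin RNA against RNF5 (shRNF5). RNF5 is a membrane-anchored ubiquitin ligase, and the study asked which transcripts follow its loss in AML cells. There were 15 libraries in 6 groups: 3 pLKO and 2 shRNF5 for MOLM-13, 2 and 2 for U937, 3 and 3 for HL-60. All cells had been transduced, so the controls carry a vector but no hairpin, and which RNF5 hairpin was sequenced is not named in the sources used here. MOLM-13 and U937 were grown in RPMI and HL-60 in IMDM, so that line and medium cannot be told apart where HL-60 is set against another line. The sample labels place harvest at 7 days of knockdown and the series design at 5 days. The study states in general that its experiments were repeated independently, but not for these libraries whether those of a group came from separate cultures, so p-values measure the spread between these libraries, which may be technical.

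The values are normalized read counts, scaled per library within each line and rounded by the authors. Levels of different lines stand on separate scales and are set side by side only as a description. PFKFB2 was listed at 0 in all 15 libraries, ENO2 in MOLM-13 and HL-60, and PDK2 in HL-60, so that 31 members could be tested for MOLM-13, 32 for U937 and 30 for HL-60. A gene was called when limma gave a Benjamini-Hochberg adjusted p under 0.1 over all genes of the line and an absolute log2 fold change over 0.4. Fold changes are on the scale of log2(value + 1), shRNF5 minus pLKO, and are given with their standard error. Values per library follow the order of the replicate numbers.

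RNF5 itself fell in each line. Its normalized read counts in MOLM-13 were 1223, 1017 and 1020 with pLKO and 76 and 81 with shRNF5. In U937 they were 648 and 843 with pLKO and 46 and 74 with shRNF5, and in HL-60 506, 689 and 545 with pLKO and 37, 133 and 43 with shRNF5. The log2 fold changes were -3.77 ± 0.18 (adjusted p = 0.000336), -3.64 ± 0.37 (adjusted p = 0.00287) and -3.25 ± 0.39 (adjusted p = 0.00125). All 9 myeloid marker genes were above 0 in each line. Of 7 markers of lymphoid, erythroid, epithelial, fibroblast and liver cells, all were at 0 in MOLM-13 and HL-60. In U937 5 of them were at 0. A value of 0 marks a gene removed by the authors' filter and need not mean that no reads were found. No pair of libraries held identical values. The spacing of the rounded values gave 9700000 to 15700000 counted reads for 9 libraries and no estimate for the other 6.

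Glycolysis splits glucose into pyruvate in the cytosol. Hexokinase traps the sugar, phosphofructokinase commits it, and fructose 2,6-bisphosphate, made and removed by the PFKFB enzymes, is the strongest activator of phosphofructokinase. Lactate dehydrogenase turns pyruvate into lactate and renews the NAD+ that GAPDH uses, and monocarboxylate transporters carry lactate with a proton across the membrane. Proliferating leukemia cells use glucose this way even when oxygen is present. Many of these genes are textbook targets of hypoxia-inducible factor, which binds ACGTG or GCGTG cores, and of MYC, which binds CACGTG.

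The start regions of 4 genes that passed the test in at least 1 line are shown: SLC16A3, which rose in each line, LDHA, which moved in opposite directions in U937 and HL-60, PGK1, which rose in U937, and HK2, which fell in HL-60. Sequences are RefSeq windows of 300 bases on GRCh38.p14, from 250 before to 50 after a transcript start, 5′ to 3′ on the strand of the gene. Capitals mark ACGTG or GCGTG on either strand. Where a gene has several windows, the one with the most ACGTG matches was chosen for that reason.

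SLC16A3, chr17:82228792-82229091, plus strand: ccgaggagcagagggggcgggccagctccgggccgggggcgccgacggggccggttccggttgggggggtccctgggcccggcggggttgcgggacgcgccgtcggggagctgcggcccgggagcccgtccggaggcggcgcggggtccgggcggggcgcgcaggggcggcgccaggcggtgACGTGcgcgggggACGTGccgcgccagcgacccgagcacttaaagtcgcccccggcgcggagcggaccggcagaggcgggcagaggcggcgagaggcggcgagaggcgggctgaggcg

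LDHA, chr11:18394313-18394612, plus strand: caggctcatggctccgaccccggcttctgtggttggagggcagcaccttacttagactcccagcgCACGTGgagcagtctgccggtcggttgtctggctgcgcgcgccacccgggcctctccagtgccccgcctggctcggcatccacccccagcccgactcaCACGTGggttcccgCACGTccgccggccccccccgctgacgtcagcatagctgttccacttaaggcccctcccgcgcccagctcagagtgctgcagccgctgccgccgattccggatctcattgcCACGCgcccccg

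PGK1, chrX:78103998-78104297, plus strand: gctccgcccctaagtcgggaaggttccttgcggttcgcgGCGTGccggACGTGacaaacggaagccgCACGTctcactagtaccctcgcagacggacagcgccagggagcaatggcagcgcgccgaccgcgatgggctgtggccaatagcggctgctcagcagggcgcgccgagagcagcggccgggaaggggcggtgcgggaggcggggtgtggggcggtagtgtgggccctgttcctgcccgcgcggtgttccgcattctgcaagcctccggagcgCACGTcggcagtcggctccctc

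HK2, chr2:74834920-74835219, plus strand: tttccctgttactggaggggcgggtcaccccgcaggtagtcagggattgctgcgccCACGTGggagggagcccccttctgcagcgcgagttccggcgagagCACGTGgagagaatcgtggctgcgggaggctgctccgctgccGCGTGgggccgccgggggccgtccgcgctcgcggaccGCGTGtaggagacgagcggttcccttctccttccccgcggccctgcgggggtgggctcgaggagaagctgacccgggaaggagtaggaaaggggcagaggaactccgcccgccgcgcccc

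The LDHA window held 5 ACGTG matches and 1 GCGTG match, the HK2 window 4 and 2, the PGK1 window 3 and 1, and the SLC16A3 window 2 and 0. CACGTG contains ACGTG and reads the same on both strands, so each CACGTG counts as a pair of ACGTG matches. It was present 2 times in LDHA, 2 times in HK2 and not in the other windows shown. The windows not chosen held 0 ACGTG matches for SLC16A3 and LDHA and 2 for HK2. Their GCGTG matches were 0 to 3 for SLC16A3, 1 for LDHA and 1 for HK2. The remaining called genes with a window entered only the shares below, except SLC2A1, PKM, PFKM and PFKFB3, whose start regions were read too but are not shown. Those of SLC2A1 and PKM held 0 ACGTG matches, the PFKM windows 0 or 1 and the PFKFB3 windows 0 or 2. Windows were found for 30 of the 33 genes (60 windows), with none for SLC2A3, PFKFB2 and SLC16A1. ACGTG was in 22 of these 60 windows (36.7%) and in 21.4% of all 35116 windows of the table. GCGTG was in 26 of them (43.3%) and in 36.5% of all windows, and CACGTG in 9 (15%) and in 7.26%. These shares count windows and not genes, and windows of a gene can overlap and repeat a site, as for PFKM. The matches are letters in a window and were read without any binding data.

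Which members passed the test varied from line to line, with SLC16A3 as the 1 gene called in all 3. In MOLM-13, 1 of 31 members was called, SLC16A3, which was higher. That is 3.23% of the members, beside 2.04% of all 13026 genes tested called in either direction (1.03% higher and 1.01% lower). By limma 0 members were called lower there, and 4 had an unadjusted p under 0.05 with a lower value. In either direction, 7 of the 31 members and 2213 of all 13026 genes had such a p. In U937, 9 of 32 members were called (28.1%), 6 higher and 3 lower, beside 15.7% of all genes (6.92% higher and 8.74% lower). In HL-60, 8 of 30 were called (26.7%), 3 higher and 5 lower, beside 25.9% of all genes (13.6% higher and 12.3% lower), so the share of members called in HL-60 was near that of all genes. In bulk RNA, fewer cells of a type and less RNA per cell cannot be told apart. Median log2 fold changes of the members were -0.10 for MOLM-13, 0.34 for U937 and -0.02 for HL-60, against 0.01, 0.00 and 0.00 over all genes tested. The shRNF5 and pLKO libraries did not overlap for 18 members in MOLM-13 (58.1%, beside 38.7% of all genes), 20 in U937 (62.5%, beside 59.2%) and 11 in HL-60 (36.7%, beside 38.5%).

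**Figure D1:**
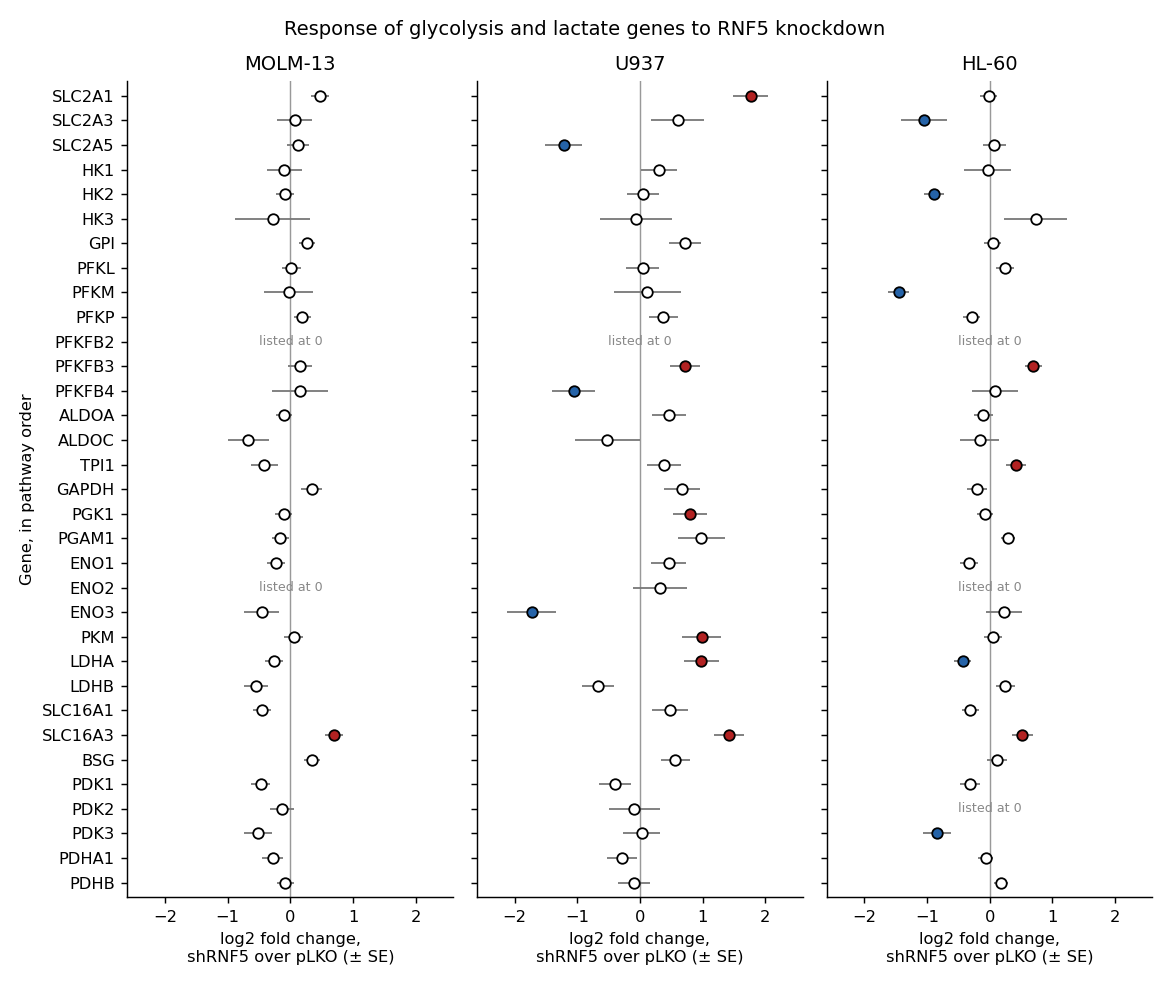
Log2 fold change of each gene (x axis, shRNF5 over pLKO, with its standard error as a bar) in pathway order (y axis), for each line. Red points were called higher, blue points called lower and white points not called, and SLC16A3 is red in all 3 panels.

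In MOLM-13, 1, 6 and 2 of all genes were called without pLKO replicate 2, shRNF5 replicate 1 and shRNF5 replicate 2, with 1849, 881 and 846 at an unadjusted p under 0.05. The U937 calls depended on single libraries too. Without U937 pLKO replicate 2, shRNF5 replicate 1 or shRNF5 replicate 3, limma called 0 members, while 7, 7 and 8 members had an unadjusted p under 0.05, and over all genes 0, 0 and 6 were called, with 2420, 1084 and 2209 at an unadjusted p under 0.05. Without pLKO replicate 3, 8 members and 2369 of all 13165 genes were called, PFKFB3, PFKFB4 and PGK1 were no longer among the members, and PGAM1 and SLC16A1 were added. The fold changes of the 9 called members kept their sign in all of these fits. In HL-60, 4 of the 8 calls (HK2, PFKM, PFKFB3 and PDK3) held under every one of the 17 alternatives tried there.

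The hexose carriers moved apart in U937, where SLC2A1 rose and SLC2A5 fell. SLC2A1 (GLUT1, chr1:43391024-43424564, minus strand, GRCh37), the basal glucose carrier of proliferating cells, rose 3.45-fold in U937, from 363 and 436 with pLKO to 1617 and 1142 with shRNF5 (log2 fold change 1.77 ± 0.28, adjusted p = 0.0163). Its values in MOLM-13 were 889, 883 and 797 with pLKO and 1186 and 1182 with shRNF5, without overlap but not called (log2 fold change 0.47 ± 0.15, adjusted p = 0.182). In HL-60 they were 995, 1242 and 974 with pLKO and 1091, 924 and 1154 with shRNF5 and overlapped (log2 fold change -0.02 ± 0.14, adjusted p = 0.946). The 4 U937 libraries fell into clear pairs, and the U937 response exceeded that of HL-60 by 1.79 ± 0.25 (adjusted p = 0.000508), while MOLM-13 minus U937 was -1.30 ± 0.26 (adjusted p = 0.015).

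SLC2A3 (GLUT3, chr12:8071826-8171603, minus strand), a high-affinity glucose carrier, fell in HL-60, from 96, 83 and 82 to 49, 69 and 21 (log2 fold change -1.04 ± 0.37, adjusted p = 0.072). This is a low level, and its call was lost without pLKO replicate 1, 2 or 3 (adjusted p = 0.157, 0.107 and 0.159) and without shRNF5 replicate 3 (log2 fold change -0.57, adjusted p = 0.186). In MOLM-13 SLC2A3 stood at 1480, 1903 and 3136 with pLKO and 2004 and 2343 with shRNF5, and in U937 at 1484 and 494 with pLKO and 1420 and 1194 with shRNF5. Both sets overlapped, and the U937 response minus that of HL-60 was 1.65 ± 0.63 (adjusted p = 0.0621). Reads of SLC2A3 can be shared with its near-identical neighbour SLC2A14, whose value was at most 10.6% of that of SLC2A3 in any library.

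SLC2A5 (GLUT5, chr1:9095165-9148537, minus strand), the fructose carrier, fell in U937, from 1420 and 977 to 431 and 592 (log2 fold change -1.22 ± 0.29, adjusted p = 0.0401). MOLM-13 libraries held 408, 355 and 412 with pLKO and 441 and 414 with shRNF5, and those of HL-60 634, 677 and 531 with pLKO and 818, 500 and 654 with shRNF5, neither of them called (0.13 and 0.08). The SLC2A5 response in MOLM-13 minus that in U937 was 1.35 ± 0.33 (adjusted p = 0.0279), and U937 minus HL-60 was -1.30 ± 0.32 (adjusted p = 0.00819). Within a library the SLC2A1 share of the 3 carriers, per kb of transcript, was 19.3% ± 9.33 (SD, n = 2) with pLKO and 46.3% ± 5.36 with shRNF5 in U937. In HL-60 it was 64.6% ± 2.26 and 64.5% ± 3.79 (n = 3 each).

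**Figure D2:**
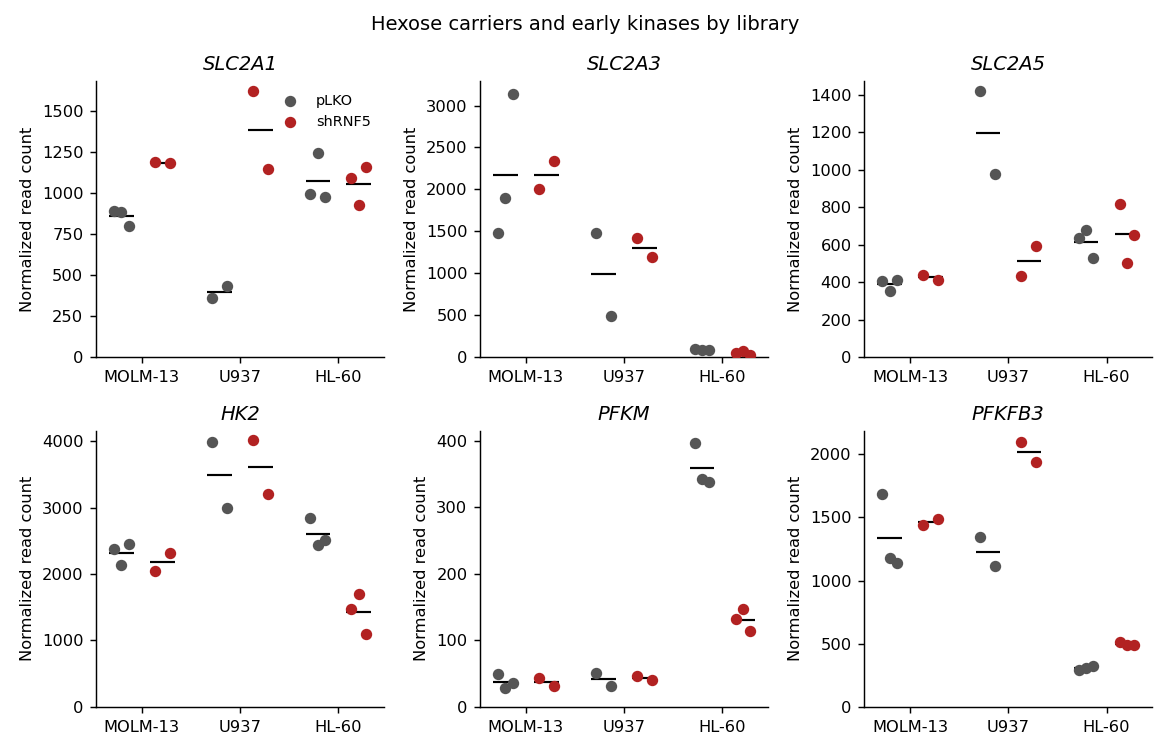
Normalized read count (y axis, from 0) of hexose carriers and early kinases in each library, by line (x axis). Grey points are pLKO libraries, red points shRNF5 libraries and bars group means, and PFKM and HK2 in HL-60 show red points well below the grey ones.

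HK2, the inducible hexokinase bound to mitochondria (chr2:75061254-75120486, plus strand), fell in HL-60. Its values there were 2846, 2442 and 2508 with pLKO and 1473, 1707 and 1090 with shRNF5, a mean of 2599 ± 217 (SD) against 1423 ± 311 (log2 fold change -0.89 ± 0.16, adjusted p = 0.00589). No shRNF5 library reached the lowest pLKO library. In MOLM-13 HK2 was 2371, 2134 and 2454 with pLKO and 2043 and 2321 with shRNF5 (log2 fold change -0.09 ± 0.14, adjusted p = 0.782), and in U937 3986 and 2995 with pLKO and 4011 and 3202 with shRNF5 (log2 fold change 0.05 ± 0.26, adjusted p = 0.917), and the groups overlapped in both. The HK2 response in HL-60 lay below that of MOLM-13 by 0.80 ± 0.25 (adjusted p = 0.0839) and below that of U937 by 0.94 ± 0.27 (adjusted p = 0.0167), on the log2 scale. Per kb, HK2 made up 96.4% ± 1.13 of the summed HK1, HK2 and HK3 in HL-60 pLKO libraries, and 52.8% ± 7.82 in MOLM-13 and 47.5% ± 5.26 in U937. Without the length these means were 97.8%, 64.1% and 58.9%. HK1, the housekeeping form, was at 23 to 53 in HL-60 against 779 to 1421 in MOLM-13 and 1697 to 3064 in U937. HK3, the form of granulocytes, ranged from 12 to 52 in HL-60 and from 90 to 483 in the other lines, and neither HK1 nor HK3 was called in any line.

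GPI, which turns glucose 6-phosphate into fructose 6-phosphate, had U937 values of 7610 and 8863 with pLKO and 14555 and 12488 with shRNF5, apart from each other and just short of the threshold (log2 fold change 0.72 ± 0.25, adjusted p = 0.103). MOLM-13 values were 9979, 9179 and 8853 with pLKO and 11203 and 11130 with shRNF5 and HL-60 values 7433, 8603 and 6615 with pLKO and 8728, 7045 and 7588 with shRNF5. The MOLM-13 groups did not overlap and the HL-60 groups did. U937 exceeded HL-60 in its GPI response by 0.67 ± 0.22 (adjusted p = 0.032).

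PFKM, the muscle form of phosphofructokinase (chr12:48498922-48540187, plus strand), fell furthest of the called members in HL-60. It went from 397, 343 and 339 with pLKO to 132, 148 and 114 with shRNF5, a mean of 360 ± 32.4 against 131 ± 17 (log2 fold change -1.45 ± 0.17, adjusted p = 0.00121). The lowest control library held 339 and the highest knockdown library 148. In MOLM-13 PFKM was near the bottom of the measured range, at 49, 29 and 36 with pLKO and 43 and 31 with shRNF5, and in U937 at 51 and 32 with pLKO and 47 and 41 with shRNF5. The PFKM response in HL-60 lay below that of MOLM-13 by 1.43 ± 0.40 (adjusted p = 0.0585) and below that of U937 by 1.57 ± 0.42 (adjusted p = 0.0134). Within the enzyme PFKM was a minor form, 6.95% ± 1.04 of the summed PFKL, PFKM and PFKP per kb in HL-60 pLKO libraries and 2.55% ± 0.517 with shRNF5. PFKL, the liver form, held the larger share in HL-60 (56.3% ± 1.91 and 67.0% ± 6.76) and was not called in any line, with values from 2561 to 4808 over all libraries. PFKP, the platelet form, was 3133 and 3201 with pLKO and 4199 and 3996 with shRNF5 in U937, 1486, 1784 and 1608 with pLKO and 1248, 1548 and 1216 with shRNF5 in HL-60 and 3486, 2990 and 3381 with pLKO and 3563 and 3934 with shRNF5 in MOLM-13. It was not called in a line, but its U937 and HL-60 responses differed by 0.66 ± 0.20 (adjusted p = 0.0264), the first being higher.

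PFKFB3, whose kinase activity makes fructose 2,6-bisphosphate (chr10:6186897-6296607, plus strand), rose in HL-60 and in U937. The HL-60 values were tight, 290, 307 and 323 with pLKO and 513, 492 and 491 with shRNF5 (log2 fold change 0.70 ± 0.13, adjusted p = 0.00654). In U937 they were 1344 and 1112 with pLKO and 2096 and 1941 with shRNF5 (log2 fold change 0.72 ± 0.24, adjusted p = 0.0915), a rise of 1.64-fold beside 1.63-fold in HL-60. The U937 call was lost without each of the 4 libraries in turn (adjusted p 0.145 to 0.66, log2 fold change 0.59 to 0.86), and the HL-60 call was not lost in any fit. In MOLM-13 PFKFB3 was 1687, 1179 and 1140 with pLKO and 1437 and 1488 with shRNF5 and overlapped (log2 fold change 0.15 ± 0.20, adjusted p = 0.715).

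PFKFB4, a second enzyme of this kind (chr3:48555117-48599448, minus strand), fell in U937 from 580 and 457 to 186 and 327 (log2 fold change -1.06 ± 0.35, adjusted p = 0.0862). PFKFB4 was low elsewhere, at 70, 54 and 118 with pLKO and 58 and 125 with shRNF5 in MOLM-13 and 17, 34 and 28 with pLKO and 18, 34 and 32 with shRNF5 in HL-60. The U937 call was lost without each of the 4 libraries in turn (log2 fold change -1.46 to -0.65, adjusted p 0.138 to 0.693). The PFKFB3 share of the summed PFKFB3 and PFKFB4 per kb in U937 was 65.0% ± 0.786 with pLKO and 86.0% ± 5.33 with shRNF5.

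TPI1, triose phosphate isomerase (chr12:6976283-6980112, plus strand), was called higher in HL-60, at 8999, 11414 and 8777 with pLKO and 10908, 13284 and 14797 with shRNF5 (log2 fold change 0.42 ± 0.16, adjusted p = 0.0855). The groups overlapped, and the call was lost without pLKO replicate 1 (0.37, adjusted p = 0.226), pLKO replicate 3 (0.35, 0.275), shRNF5 replicate 2 (0.40, 0.156) or shRNF5 replicate 3 (0.32, 0.245). Rescaling to equal sums and a correction for transcript length each took its fold change below the threshold. In MOLM-13 TPI1 was 14348, 9879 and 8249 with pLKO and 7985 and 7838 with shRNF5 and in U937 4846 and 6576 with pLKO and 8750 and 6239 with shRNF5, neither called. Its pseudogene TPI1P1 held at most 1.13% of the TPI1 value.

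ALDOA, the main aldolase, was not called in any line. In U937 it stood at 12141 and 16384 with pLKO and 19755 and 19049 with shRNF5, in MOLM-13 at 23115, 21406 and 20842 with pLKO and 19671 and 20831 with shRNF5 and in HL-60 at 21498, 28087 and 22599 with pLKO and 20272, 22923 and 23934 with shRNF5. The U937 and HL-60 responses of ALDOA differed by 0.56 ± 0.24 (adjusted p = 0.0879), the first being higher. ALDOC, the brain form, ranged from 31 to 224 over all libraries and made up less than 1% of the aldolase sum per kb in every library.

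GAPDH, often used as a loading control, had some of the highest values here, and none of its fold changes was called. Its values were 48106, 64823 and 63515 with pLKO and 73822 and 74006 with shRNF5 in MOLM-13 and 23140 and 30049 with pLKO and 41220 and 42645 with shRNF5 in U937, both without overlap and higher with shRNF5. In HL-60 they were 59746, 68381 and 57224 with pLKO and 56224, 49732 and 55229 with shRNF5, also without overlap but lower with shRNF5. The log2 fold changes were 0.34 ± 0.17 (adjusted p = 0.347), 0.67 ± 0.29 (adjusted p = 0.167) and -0.20 ± 0.16 (adjusted p = 0.403), and the U937 response exceeded that of HL-60 by 0.87 ± 0.26 (adjusted p = 0.0215).

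PGK1, phosphoglycerate kinase, the first step that makes ATP (chrX:77166236-77384792, plus strand), rose 1.73-fold in U937, from 8690 and 12183 to 19814 and 16205 (log2 fold change 0.80 ± 0.28, adjusted p = 0.0985). PGK1 values overlapped in MOLM-13, at 13275, 14914 and 12622 with pLKO and 13154 and 12103 with shRNF5, and in HL-60, at 11866, 13471 and 11683 with pLKO and 11966, 11163 and 12004 with shRNF5. The call lies close to the threshold and was lost without each of the 4 U937 libraries in turn (log2 fold change 0.56 to 1.04, adjusted p 0.102 to 0.66). The PGK1 response in MOLM-13 minus that in U937 was -0.91 ± 0.24 (adjusted p = 0.0365), and U937 exceeded HL-60 by 0.87 ± 0.23 (adjusted p = 0.0123).

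PGAM1, phosphoglycerate mutase, was 385 and 922 with pLKO and 1262 and 1099 with shRNF5 in U937 (log2 fold change 0.98 ± 0.37, adjusted p = 0.123) and was not called. In HL-60 it was 1130, 1008 and 1038 with pLKO and 1274, 1234 and 1388 with shRNF5, apart but with a small change of 0.29 ± 0.12 (adjusted p = 0.0995), below the fold threshold. MOLM-13 libraries gave 2665, 2846 and 2462 with pLKO and 2259 and 2499 with shRNF5, and the MOLM-13 response minus the U937 response was -1.14 ± 0.36 (adjusted p = 0.065).

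ENO1, the ubiquitous enolase, was 25027 and 25905 with pLKO and 38993 and 31407 with shRNF5 in U937, 42534, 40051 and 34932 with pLKO and 34023 and 32372 with shRNF5 in MOLM-13 and 36306, 39861 and 35147 with pLKO and 28533, 28981 and 31026 with shRNF5 in HL-60. Groups were apart in each line, higher with shRNF5 in U937 and lower in the other two, and no line passed the test. The U937 response of ENO1 exceeded that of HL-60 by 0.79 ± 0.22 (adjusted p = 0.0166), and the MOLM-13 response minus that of U937 was -0.69 ± 0.23 (adjusted p = 0.0762). ENO3, the muscle enolase (chr17:4851387-4860426, plus strand), fell in U937 from 509 and 357 to 94 and 174 (log2 fold change -1.73 ± 0.39, adjusted p = 0.0328). ENO3 stood at 186, 115 and 131 with pLKO and 96 and 109 with shRNF5 in MOLM-13 and in HL-60 at 42, 34 and 29 with pLKO and 48, 30 and 47 with shRNF5. The U937 response minus that of HL-60 was -1.96 ± 0.47 (adjusted p = 0.00746) for ENO3. It was a minor form even where it moved, 2.04% ± 0.548 of the enolase sum per kb with pLKO and 0.482% ± 0.266 with shRNF5 in U937. ENO2, the neuronal form, was above 0 in U937 alone, at 118 and 250 with pLKO and 170 and 270 with shRNF5, and was not called.

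PKM, pyruvate kinase of most tissues (chr15:72491370-72524160, minus strand), rose 1.93-fold in U937, from 18406 and 29430 to 47521 and 44594 (log2 fold change 0.98 ± 0.31, adjusted p = 0.0812). The MOLM-13 values were 19639, 15945 and 15191 with pLKO and 16571 and 18401 with shRNF5 and the HL-60 values 17539, 15402 and 13307 with pLKO and 16743, 15918 and 15244 with shRNF5, both with overlap and with log2 fold changes of 0.05 and 0.06. U937 exceeded HL-60 by 0.93 ± 0.27 (adjusted p = 0.021), and MOLM-13 minus U937 was -0.93 ± 0.29 (adjusted p = 0.059). The values are per gene, so the PKM1 and PKM2 splice forms were not told apart.

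LDHA changed in opposite directions in U937 and HL-60. This gene of the lactate dehydrogenase subunit that favours lactate formation (chr11:18416107-18429972, plus strand) rose 1.92-fold in U937, from 4524 and 7350 to 11092 and 11699 (log2 fold change 0.98 ± 0.28, adjusted p = 0.0624). In HL-60 it fell, from 10202, 10243 and 9147 to 6979, 8280 and 6739 (log2 fold change -0.43 ± 0.13, adjusted p = 0.0389). The groups did not overlap in either line. In MOLM-13 LDHA was 18704, 19318 and 15747 with pLKO and 15584 and 14346 with shRNF5, all knockdown libraries just under the lowest control library and not called (log2 fold change -0.26 ± 0.14, adjusted p = 0.394). The U937 response exceeded that of HL-60 by 1.41 ± 0.26 (adjusted p = 0.00183), and MOLM-13 minus U937 was -1.24 ± 0.27 (adjusted p = 0.0196). In HL-60 the LDHA call was lost without pLKO replicate 1 (-0.41, adjusted p = 0.124), shRNF5 replicate 1 (-0.40, adjusted p = 0.094, short of the fold threshold) or shRNF5 replicate 3 (-0.37, adjusted p = 0.117).

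LDHB, whose subunit favours lactate use, was not called in any line. Its values were 49785, 36040 and 32575 with pLKO and 26262 and 26575 with shRNF5 in MOLM-13 and 18295 and 17355 with pLKO and 12446 and 10140 with shRNF5 in U937, lower with shRNF5 and without overlap in both. In HL-60 they were 20415, 22893 and 22589 with pLKO and 22191, 28612 and 27906 with shRNF5, with overlap. Log2 fold changes were -0.55 ± 0.19 (adjusted p = 0.218), -0.67 ± 0.26 (adjusted p = 0.131) and 0.25 ± 0.15 (adjusted p = 0.261). The LDHB response in MOLM-13 minus that in HL-60 was -0.80 ± 0.25 (adjusted p = 0.0809), and U937 minus HL-60 was -0.91 ± 0.26 (adjusted p = 0.0188).

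As a share of LDHA and LDHB together, per kb of transcript, LDHA was 12.6% and 19.8% in the U937 pLKO libraries and 34.1% to 40.1% in the shRNF5 libraries. In HL-60 the share was 20.7% ± 1.73 with pLKO and 14.1% ± 1.60 with shRNF5, also without overlap. The MOLM-13 share was 21.2% ± 2.98 (n = 3) and 24.8% ± 1.25 (n = 2), from 17.9% to 23.8% with pLKO and from 23.9% to 25.7% with shRNF5. A share within a library does not depend on how the library was scaled. The labels name a 3′ kit, for which values need not grow with length, and without the length the U937 means were 24.8% and 50.3% and the HL-60 means 31.0% and 21.9%.

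SLC16A3 (MCT4, chr17:80175810-80219005, plus strand), the low-affinity carrier known for lactate export, was the 1 member called in all 3 lines, and it was higher with shRNF5 in each. In MOLM-13 its values were 1869, 2078 and 2136 with pLKO and 3083 and 3486 with shRNF5, a mean of 2028 ± 140 against 3284 ± 285 (log2 fold change 0.70 ± 0.14, adjusted p = 0.0833). U937 values were 1274 and 1474 with pLKO and 3934 and 3451 with shRNF5, a rise of 2.69-fold (log2 fold change 1.43 ± 0.24, adjusted p = 0.0179), and in HL-60 they were 3478, 3446 and 2741 with pLKO and 5188, 3573 and 5246 with shRNF5 (log2 fold change 0.52 ± 0.17, adjusted p = 0.0509). Every knockdown library lay above every control library of its line, though HL-60 shRNF5 replicate 2, at 3573, lay only just above the highest control, at 3478. The response of U937 exceeded that of HL-60 by 0.90 ± 0.25 (adjusted p = 0.0153), and MOLM-13 minus U937 was -0.73 ± 0.26 (adjusted p = 0.093). The MOLM-13 call held without pLKO replicate 1 (0.64, adjusted p = 0.0479) and was lost without pLKO replicate 2 (0.71, adjusted p = 0.203), pLKO replicate 3 (0.73, 0.113), shRNF5 replicate 1 (0.78, 0.537) or shRNF5 replicate 2 (0.61, 0.706). In HL-60 it was lost without pLKO replicate 3 (0.41, adjusted p = 0.198), shRNF5 replicate 1 (0.43, 0.125) or shRNF5 replicate 3 (0.43, 0.165). The U937 call was lost too without pLKO replicate 2, shRNF5 replicate 1 or shRNF5 replicate 3 (log2 fold change 1.32, 1.33 and 1.52). Each of these U937 fits left 1 library in an arm.

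**Figure D3:**
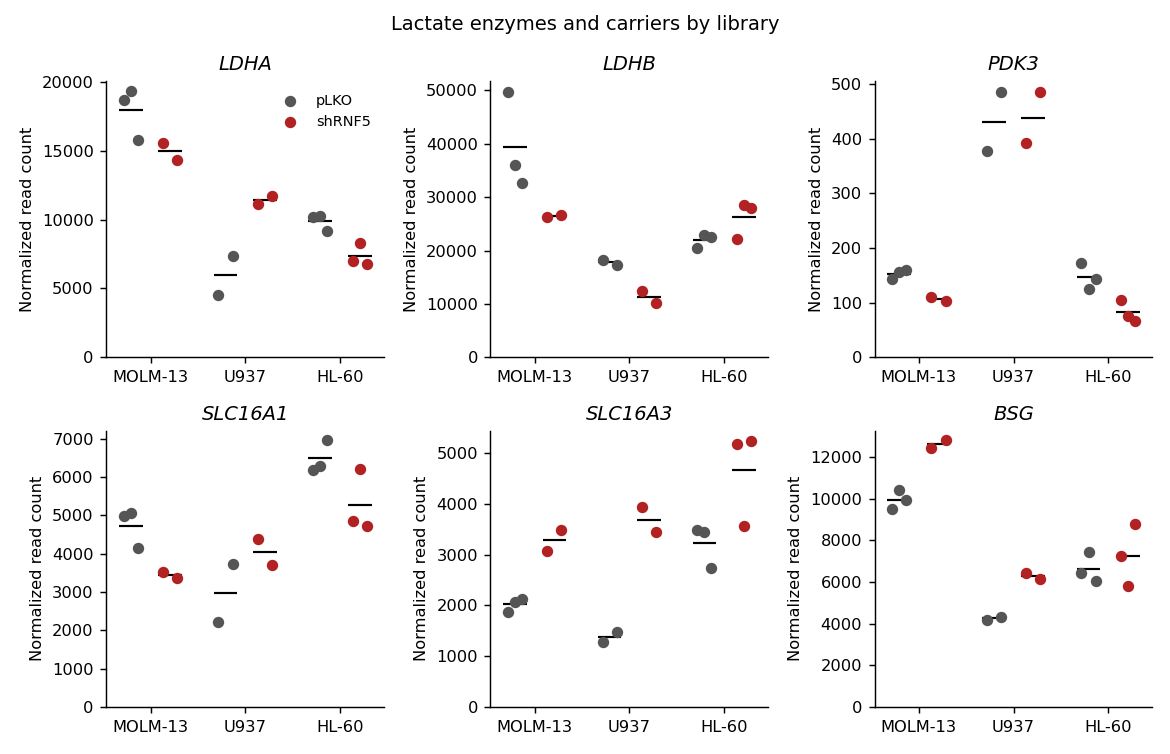
Normalized read count (y axis, from 0) of lactate dehydrogenase subunits, PDK3, the lactate carriers and BSG in each library, by line (x axis). Grey points are pLKO libraries, red points shRNF5 libraries and bars group means, and the red SLC16A3 points lie above the grey ones in each line.

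SLC16A1 (MCT1), the carrier of most tissues that moves lactate either way, was not called in any line. MOLM-13 values were 4977, 5067 and 4137 with pLKO and 3517 and 3376 with shRNF5, lower and without overlap (log2 fold change -0.45 ± 0.14, adjusted p = 0.19). U937 values were 2219 and 3742 with pLKO and 4390 and 3708 with shRNF5 and HL-60 values 6196, 6300 and 6973 with pLKO and 4866, 6220 and 4718 with shRNF5, with overlap in both. MOLM-13 minus U937 was -0.94 ± 0.29 (adjusted p = 0.0591), and U937 minus HL-60 was 0.80 ± 0.28 (adjusted p = 0.042).

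Per kb, SLC16A3 took 38.4% ± 3.91 of the SLC16A1 and SLC16A3 sum in MOLM-13 pLKO libraries and 57.9% ± 2.82 in shRNF5 libraries. In U937 the share was 40.8% ± 6.41 and 56.9% ± 0.656, and in HL-60 41.7% ± 4.77 and 55.9% ± 9.13. The shRNF5 libraries lay above the pLKO libraries in each line, by a narrow gap in HL-60 (45.3% against 44.8%). Per kb, the mean share was under 50% with pLKO and over 50% with shRNF5 in all 3 lines. Without the length the means were 30.1% and 48.8%, 32.4% and 47.7%, and 33.2% and 46.9%. They rose in each line but stayed under 50% with shRNF5, so the crossing of 50% rests on the division by length.

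**Figure D4:**
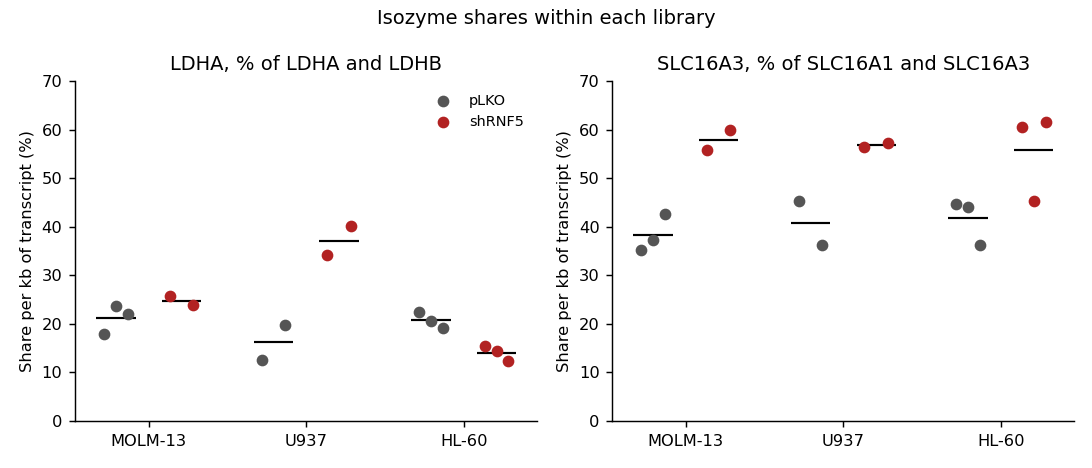
Share of LDHA in LDHA and LDHB (left) and of SLC16A3 in SLC16A1 and SLC16A3 (right) in each library, in percent per kb of transcript (y axis), by line (x axis). Grey points are pLKO libraries, red points shRNF5 libraries and bars group means, and the SLC16A3 share is higher with shRNF5 in all lines whereas the LDHA share is higher in U937 and lower in HL-60.

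BSG (CD147), the chaperone that brings both carriers to the cell surface, ranged from 4178 to 12837 over all libraries. It was higher with shRNF5 without overlap in MOLM-13 (log2 fold change 0.34 ± 0.13, adjusted p = 0.235) and U937 (log2 fold change 0.56 ± 0.23, adjusted p = 0.151) and mixed in HL-60 (log2 fold change 0.11 ± 0.16, adjusted p = 0.645), and it was not called.

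At the gate to the mitochondrion, PDK3 (chrX:24483361-24568583, plus strand), a kinase that switches pyruvate dehydrogenase off, fell in HL-60 from 172, 125 and 144 to 105, 76 and 67 (log2 fold change -0.84 ± 0.23, adjusted p = 0.0282). In MOLM-13 it was 144, 157 and 159 with pLKO and 110 and 103 with shRNF5, lower without overlap but not called (log2 fold change -0.52 ± 0.23, adjusted p = 0.292). In U937 it was 377 and 485 with pLKO and 392 and 485 with shRNF5, and U937 minus HL-60 was 0.86 ± 0.34 (adjusted p = 0.0663). PDK1, another of these kinases, was not called, with values of 568 to 1303 in HL-60 and MOLM-13 and 10372 to 15374 in U937, and a fold change below 0 in each line. PDK2 lay between 84 and 310 where it was above 0. PDHA1 and PDHB, subunits of pyruvate dehydrogenase, ranged from 2907 to 5491 and from 1562 to 2207 and were not called in any line.

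Whether a line responded differently from another was tested directly for the 30 members above 0 in all 3 lines. U937 and HL-60 differed for 18 of them (60%), 15 with the higher response in U937 and 3 with the lower, SLC2A5, ENO3 and LDHB. Over all 11072 genes, 37.2% differed between these lines, 19.1% with the higher and 18.1% with the lower response in U937. MOLM-13 and U937 differed for 9 members (30%), 8 lower in MOLM-13 and 1, SLC2A5, higher, beside 15.4% of all genes (8.48% lower and 6.95% higher). MOLM-13 and HL-60 differed for 3 (10%), HK2 and PFKM higher in MOLM-13 and LDHB lower, beside 8.82% of all genes (3.72% higher and 5.09% lower). Median differences over the members were 0.61, -0.36 and -0.01, against 0.02, -0.06 and -0.02 over all genes. Each line enters 2 of these 3 comparisons, which therefore share libraries.

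With single libraries left out, 14 to 18 members and 2609 to 4798 of the 11072 genes differed between U937 and HL-60. For MOLM-13 and U937 the number fell to 1 without MOLM-13 shRNF5 replicate 2 or U937 shRNF5 replicate 1 (190 and 130 of all genes), to 2 without U937 pLKO replicate 2 (398 genes), to 4 without MOLM-13 shRNF5 replicate 1 (685 genes) and to 5 without MOLM-13 pLKO replicate 2 (798 genes). For MOLM-13 and HL-60 it fell to 1 without MOLM-13 pLKO replicate 1 or 2 (498 and 817 genes). It fell to 0 without MOLM-13 shRNF5 replicate 1 or 2, HL-60 pLKO replicate 1 or 3 or HL-60 shRNF5 replicate 3, where 4 to 7 members had an unadjusted p under 0.05 in limma and 49 to 362 of all genes differed.

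**Figure D5:**
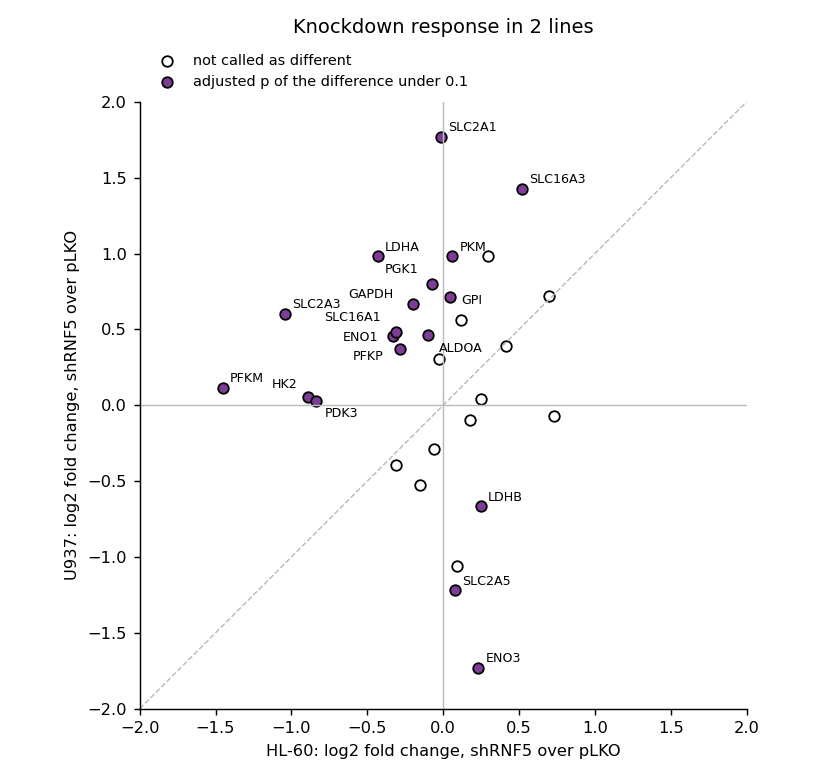
Log2 fold change of each gene in HL-60 (x axis) and in U937 (y axis), for the 30 members above 0 in all lines. Filled points differ between the lines at an adjusted p under 0.1, the dashed line marks equal response, and 15 filled points lie above it and 3 below.

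The members together held 1.07% ± 0.0447 of the summed values in MOLM-13 pLKO libraries and 1.05% ± 0.0194 with shRNF5. In U937 the share was 1.16% ± 0.159 (n = 2) and 1.53% ± 0.0179 (n = 2), and no shRNF5 library was below 1.51% or pLKO library above 1.27%. In HL-60 it was 1.44% ± 0.0968 and 1.34% ± 0.0188, with overlap. The U937 pLKO libraries lay far apart, 1.04% and 1.27%, and pLKO replicate 2 was the lower of the pair for GAPDH, PKM, LDHA, PGK1 and PGAM1.

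Other genes near the pathway, 68 in a list of further glycolysis, pyruvate, pentose phosphate and hypoxia-inducible factor genes, were counted in the same way. In MOLM-13 1 rose and 1 fell of 50 tested, in U937 3 rose and 2 fell of 47, and in HL-60 4 rose and 8 fell of 47. These are 4.0%, 10.6% and 25.5% of those tested, beside 2.04%, 15.7% and 25.9% of all genes, so that the HL-60 share was near that of all genes. The genes called in 2 lines were KDM3A and DLAT. KDM3A, a hypoxia-inducible histone demethylase, rose in MOLM-13, where it was 1404, 1541 and 1481 with pLKO and 2411 and 2412 with shRNF5 (log2 fold change 0.71 ± 0.13, adjusted p = 0.0747), and in HL-60, where it was 1053, 1000 and 802 with pLKO and 1564, 1449 and 1284 with shRNF5 (log2 fold change 0.59 ± 0.14, adjusted p = 0.0164). DLAT, a subunit of pyruvate dehydrogenase, fell in both of these lines, with 3777, 4594 and 4334 with pLKO and 2707 and 2680 with shRNF5 in MOLM-13 (log2 fold change -0.65 ± 0.14, adjusted p = 0.0926) and 3703, 3788 and 3966 with pLKO and 2776, 3290 and 2561 with shRNF5 in HL-60 (log2 fold change -0.42 ± 0.12, adjusted p = 0.0394). In U937 KDM3A was 1729 and 1116 with pLKO and 1325 and 1272 with shRNF5 and DLAT 1762 and 2168 with pLKO and 1426 and 1438 with shRNF5, neither called.

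Of the 9 myeloid markers, 2 were called in U937 and 5 in HL-60. Their summed value was 36870 to 36934 with pLKO and 19846 to 21626 with shRNF5 in U937, where 2 fell and 7 were not called, 4 markers having a fold change above 0 and 5 below. In HL-60 it was 122898 to 149466 and 165348 to 245170, where 4 rose and 1 fell. In MOLM-13 it was 50324 to 58845 and 57088 to 59621, with overlap, and no marker passed the test in limma. The part of the myeloid markers in these results was not tested. Fold changes also correlated weakly with transcript length over all genes (Spearman's rho 0.277 over 12638 genes in MOLM-13, 0.155 over 12747 in U937 and -0.216 over 12209 in HL-60, where genes of one library share its preparation and are not independent), and correcting for length gave 2, 11 and 8 called members beside 327, 2036 and 3282 called genes.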

How the data were processed

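RNA-seq of MOLM-13, U937 and HL-60 cells with pLKO or shRNF5 was analysed, 15 libraries grouped by the construct and line in the sample labels. Upstream, STAR (hg19), featureCounts of Subread and edgeR inside SARTools were used by the authors, each line being normalized by itself. What they deposited is treated as a score: a read count per gene after normalization, rounded to a whole number, and 0 for genes removed by their filter. Labels name a QuantSeq 3′ kit and the methods a directional poly(A) kit. No count test was run on normalized values.

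Each line was fitted with limma 3.58.1 in R 4.3.3 on log2(value + 1), using moderated variances with a trend on the mean, over the genes with a value above 0 in at least 1 of its libraries. Differences between lines came from one fit of the 15 libraries, over genes above 0 in all 3 lines, at an adjusted p under 0.1. The procedure was run on simulated data with known changes and independent noise per gene. That simulation holds no shift shared by the genes of a library, so it cannot speak to the dependence on single libraries. Coordinates and canonical transcript lengths came from GENCODE on GRCh37 (the build of hg19), and promoter windows from RefSeq on GRCh38.p14. Shares per kb divide each value by that length, which need not suit values from a 3′ kit. Of 104 near-identical copies named in the files, 11 were above 0.

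The 33 members, the neighbouring genes and the markers were chosen with earlier results of these data known. Values in every library are given for the 22 members called in a line or differing between lines, the other 11 by range, and neighbours called in 2 lines by name. Alternatives covered pseudocounts, filters, scaling, thresholds, the trend, one fit, replicate blocks, a length correction and leaving out each library. Values of some listed genes are not reported here. The depth estimate divides a library's summed value by the spacing of its low values.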

Additional observations from a re-analysis of the deposited data

Results flagged for a closer look

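The following responses differed between 2 lines by the test of the difference itself, in one limma fit of all libraries with an adjusted p under 0.1. Values are differences of log2 fold changes, and what each line did is given above. The U937 response minus the HL-60 response was SLC2A1 1.79, SLC2A3 1.65, SLC2A5 -1.30, HK2 0.94, GPI 0.67, PFKM 1.57, PFKP 0.66, ALDOA 0.56, GAPDH 0.87, PGK1 0.87, ENO1 0.79, ENO3 -1.96, PKM 0.93, LDHA 1.41, LDHB -0.91, SLC16A1 0.80, SLC16A3 0.90 and PDK3 0.86. The MOLM-13 response minus the U937 response was SLC2A1 -1.30, SLC2A5 1.35, PGK1 -0.91, PGAM1 -1.14, ENO1 -0.69, PKM -0.93, LDHA -1.24, SLC16A1 -0.94 and SLC16A3 -0.73. The MOLM-13 response minus the HL-60 response was HK2 0.80, PFKM 1.43 and LDHB -0.80. No group had 4 or more libraries, so no single library could be tested as lying apart.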

How the results depend on the processing

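No result changed its direction under an alternative while called. At an adjusted p under 0.05 the called members went from 1 to 0 in MOLM-13, from 9 to 4 in U937 and from 8 to 5 in HL-60. In MOLM-13, 7 members and 2213 of all 13026 genes had an unadjusted p under 0.05. The differences went from 9 to 4 for MOLM-13 and U937, while those over all 11072 genes went from 1708 to 808. For MOLM-13 and HL-60 they went from 3 to 0 (7 unadjusted), and over all genes from 976 to 360. Without the mean-variance trend the called members were 0, 2 and 5, and 1 difference was left for MOLM-13 and HL-60, beside 720 over all genes. One fit over all libraries gave 15 in U937 and 5 in HL-60, of 32 members tested. A transcript length correction, chosen after the data were seen, gave 2 in MOLM-13. Leaving out single libraries gave 0 to 2, 0 to 8 and 4 to 9 called members, and 1 to 12, 0 to 4 and 14 to 18 differences for MOLM-13 and U937, MOLM-13 and HL-60, and U937 and HL-60. With 1 library left in an arm it was assumed to vary like the other group. The median over the HL-60 members, -0.02, changed sign to 0.01 and 0.04 without shRNF5 or pLKO replicate 2. With single libraries left out the medians ran from -0.16 to -0.06 in MOLM-13, from 0.24 to 0.45 in U937 and from -0.06 to 0.04 in HL-60.

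Over all genes, 266 calls in MOLM-13 became 39 at 0.05, 55 without the trend and 555 in one fit, and 1 to 872 without single libraries. In U937, 2062 became 824, 475, 4977 and 0 to 2369. In HL-60, 3251 became 2415 at 0.05, 2995 without the trend, 2594 of 14906 genes in one fit, and 1970 and 1991 without pLKO replicate 3 and shRNF5 replicate 3. Equal-sum rescaling gave 7 called members in U937, 4 of them higher, and 7 in HL-60. Over all genes it gave 1771 calls in U937, 663 of them higher instead of 911, and 3264 calls in HL-60. Testing every gene, zeros included, could not be fitted, since most residual variances were then 0.

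The replicate block gave 2 called members in MOLM-13 (738 genes), 6 with the numbers of the file names (2495 genes), and 8 in HL-60 (3580 genes). Deviations of same-numbered libraries from their group means correlated by 0.386, 0.12 and -0.0466 in HL-60 and by -0.133 and -0.447 in MOLM-13. The 2 MOLM-13 shRNF5 libraries deviate in exactly opposite ways. Each pLKO library there correlates positively with 1 of them by construction, so these values alone do not decide the pairing in MOLM-13. The labels number the MOLM-13 shRNF5 libraries 1 and 2 and the file names 2 and 3, and by the file names the correlations were 0.447 and 0.266. No source says that a number marks a shared batch, and fewer than 3 MOLM-13 pairs exist and 1 HL-60 pair lies under 0.1, so libraries were taken to share only a number, and not every HL-60 library correlated best with its own number. U937 shares 1 number only and has no such fit. The cause of these changes was not tested. Depth limits genes at low values, among them PFKM outside HL-60, ALDOC, and in HL-60 HK1, HK3, PFKFB4, ENO3 and the called SLC2A3.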

Other observations

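Several genes near the pathway were called in 1 line only, and they are named here after their values were seen. Their responses were not compared between lines here. In U937, EPAS1, the hypoxia-inducible factor 2 alpha subunit, was higher with shRNF5 (log2 fold change 1.40 ± 0.33, adjusted p = 0.0389), as was PDP1, a phosphatase that switches pyruvate dehydrogenase on (log2 fold change 0.78 ± 0.26, adjusted p = 0.086). MPC2, a subunit of the mitochondrial pyruvate carrier, was lower (log2 fold change -0.90 ± 0.24, adjusted p = 0.0516), as was PCK2, the mitochondrial phosphoenolpyruvate carboxykinase (log2 fold change -0.77 ± 0.25, adjusted p = 0.0874).

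In HL-60, FBP1, the fructose bisphosphatase that runs against phosphofructokinase in gluconeogenesis, was higher with shRNF5, at 29, 25 and 16 with pLKO and 224, 74 and 217 with shRNF5 (log2 fold change 2.71 ± 0.41, adjusted p = 0.00291). EGLN2, an oxygen-sensing prolyl hydroxylase, was higher too (log2 fold change 0.76 ± 0.17, adjusted p = 0.014), and so was ADM, the peptide hormone adrenomedullin (log2 fold change 0.80 ± 0.28, adjusted p = 0.0708). SLC16A7 (MCT2), a high-affinity monocarboxylate carrier, was lower (log2 fold change -1.16 ± 0.27, adjusted p = 0.016), as was EMB, a chaperone of monocarboxylate carriers (log2 fold change -0.57 ± 0.19, adjusted p = 0.0591). Log2 fold changes of the pyruvate dehydrogenase phosphatase subunits PDP2 and PDPR were -0.74 and -0.54, and both were called. Those of EGLN1, ANKRD37 and ERO1L were -0.42, -1.01 and -1.05, and all were called lower. These genes belong to the same list of hypoxia-inducible factor genes as EGLN2, ADM and KDM3A, which were called higher in HL-60. Of the 18 genes of that list tested there, 3 were called higher and 3 lower, with a median log2 fold change of 0.05. That is 33.3% called, beside 25.9% of all genes.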
